A study of Homo sapiens with 6 samples.

Results

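The collagen chain genes were taken as every row of the deposited expression table whose symbol has the form COL, a type number, A and a chain number, whether or not the gene was expressed. They numbered 44 of the 58735 gene rows. The table holds 6 RNA-seq libraries of T24, an established human cell line labelled as bladder urothelial carcinoma with a wild-type genotype. There were 3 libraries of cells given TGF-β1 (10 ng/ml, 48 h), called TGF-b1 here, and 3 control libraries of cells not given it, all at day 2. Cells of both groups were grown with 10% serum. The unit is FPKM, in which fragments are divided by gene length and library size, as the authors deposited them, so levels of different genes are compared per length. The labels do not say that replicates were separate cultures, so the p-values cover the spread among these libraries, and this spread may be technical.

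Collagens are secreted or membrane-bound proteins built of 3 alpha chains wound into a triple helix, and each type uses its own set of chains. Fibrillar collagens form the cables of connective tissue, network collagens such as type IV form the sheet of basement membranes, beaded filaments, FACITs and anchoring fibrils link these structures, and a few types span the cell membrane. TGF-β1 signals to the nucleus by way of SMAD proteins and is known to induce matrix genes in many cell types. Of the 44 genes, 11 were fibrillar, 9 network, 5 beaded filament, 10 FACIT, 4 transmembrane, 2 multiplexin, 1 anchoring fibril and 2 of other classes.

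Start regions are shown for COL7A1, which had the largest change among the collagen genes tested, and for the COL4A1 and COL4A2 pair, whose starts face each other on opposite strands. The sequences are from RefSeq, build GRCh38.p14, in which 32 of the 44 genes were matched; COL1A1 was not matched. The COL7A1 stretch is the 250 bases before the start, chr3:48595330-48595579 on the minus strand, and the other is the whole interval of 126 bases between the starts of COL4A1 and COL4A2, chr13:110307158-110307283 on the plus strand. Capitals mark matches on either strand to CAGAC (the SMAD box), GGGCGG (the GC box) and TATAAA (the TATA box).
COL7A1: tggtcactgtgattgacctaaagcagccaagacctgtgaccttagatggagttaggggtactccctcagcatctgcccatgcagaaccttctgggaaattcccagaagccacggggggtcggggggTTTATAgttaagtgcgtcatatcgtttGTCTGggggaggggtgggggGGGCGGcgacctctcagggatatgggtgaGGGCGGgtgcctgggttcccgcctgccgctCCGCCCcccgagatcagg
COL4A1-COL4A2: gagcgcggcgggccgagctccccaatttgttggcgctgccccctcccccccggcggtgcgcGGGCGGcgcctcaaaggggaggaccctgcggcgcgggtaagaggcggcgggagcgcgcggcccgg

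In the COL7A1 stretch CAGAC matched once, beginning 97 bases before the start as GTCTG, and GGGCGG matched 3 times. TATAAA matched once, 124 bases before the start and on the opposite strand. The interval between COL4A1 and COL4A2 held 1 match to GGGCGG, 0 to CAGAC and 0 to TATAAA, and 80.2% of its bases were G or C. Of 35116 promoter windows of 250 bases in the same table, 38.0% held CAGAC, 42.6% held GGGCGG and 10.7% held TATAAA. Of the 44 collagen windows, which include alternative starts, 36.4% held CAGAC, 54.5% held GGGCGG and 18.2% held TATAAA. The SMAD palindrome GTCTAGAC was in 0.182% of all windows and in 0 of the collagen windows. These matches describe letters and not binding.

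The libraries held 20703945 to 23678772 fragments on genes matched to the annotation, recovered from the FPKM and gene lengths. The treatment check rested on known TGF-β targets, of which SMAD7, PMEPA1 and SKIL passed the test and were higher, at means of 6.39, 68.4 and 8.58 FPKM in TGF-b1 libraries and 2.35, 14.1 and 3.48 FPKM in control libraries. Of 16 urothelial markers 7 reached the level needed for the test, KRT8 and KRT18 the highest, while KRT5, KRT19 and UPK3A had 0 fragments. KRT20, GATA3, TP63, EPCAM, CDH1 and UPK2 were also below that level. The 16 summed to 414 to 445 FPKM in TGF-b1 and 477 to 645 FPKM in control libraries, with a median log2 change of -0.33 over the 7. Most of this sum was KRT8 and KRT18, keratins of simple epithelia in general. FOXA1 was not lower, at 2.89 FPKM in TGF-b1 and 2.82 FPKM in control libraries. Limma called 0 of the 7, against 2.44% of all genes. Voom called 2 of 8 lower, against 4.83% of all genes, and without control 3 limma called 4 of 7 lower, against 16.5%. KRT18 averaged 227 ± 13.4 FPKM in TGF-b1 and 322 ± 55.1 FPKM in control libraries, without overlap (adjusted p = 0.079 by limma and 0.0074 by voom). The part of this shift in the collagen changes was not tested. Of 10 fibroblast and mesenchymal markers none reached it, PDGFRA, THY1, POSTN, PDPN and DPT had 0 fragments, and the list summed to 0.0906 to 0.2001 FPKM in TGF-b1 and 0.190 to 0.415 FPKM in control libraries. The leukocyte marker CD3E had 0 fragments. Endothelial markers (3 genes) summed to 0.437 to 0.633 FPKM in TGF-b1 and 0.525 to 0.745 in control libraries. Control 3 stood apart from control 1 and control 2 along GC content. Over 11292 tested genes the rank correlation of GC content with its log2 difference from the mean of the other controls was -0.69, and over the 12 collagens tested it was -0.86. Without control 3 the genes past the test numbered 3280 of 11363, or 28.9%, against 277, or 2.44%, with all libraries.

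T24 cells expressed a small part of the collagen family, led by basement membrane chains. The test took 12 of the 44 genes, those that reached 1 FPKM in 3 or more libraries, and 10 of these reached 1 FPKM in all 6 libraries. COL7A1 and COL1A1 reached it in TGF-b1 libraries alone, so their passing this filter already required a difference. COL18A1, COL4A1 and COL4A2 together made up 81.8 to 83.7% of all collagen FPKM in TGF-b1 libraries and 81.7 to 85.7% in control libraries. The sum over all 44 genes was 177 ± 16.99 FPKM in TGF-b1 and 161 ± 17.7 FPKM in control libraries (SD, n = 3), which overlapped, and without COL18A1 it was 104 ± 6.90 and 77.6 ± 4.87 FPKM, which did not.

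**Figure D1:**
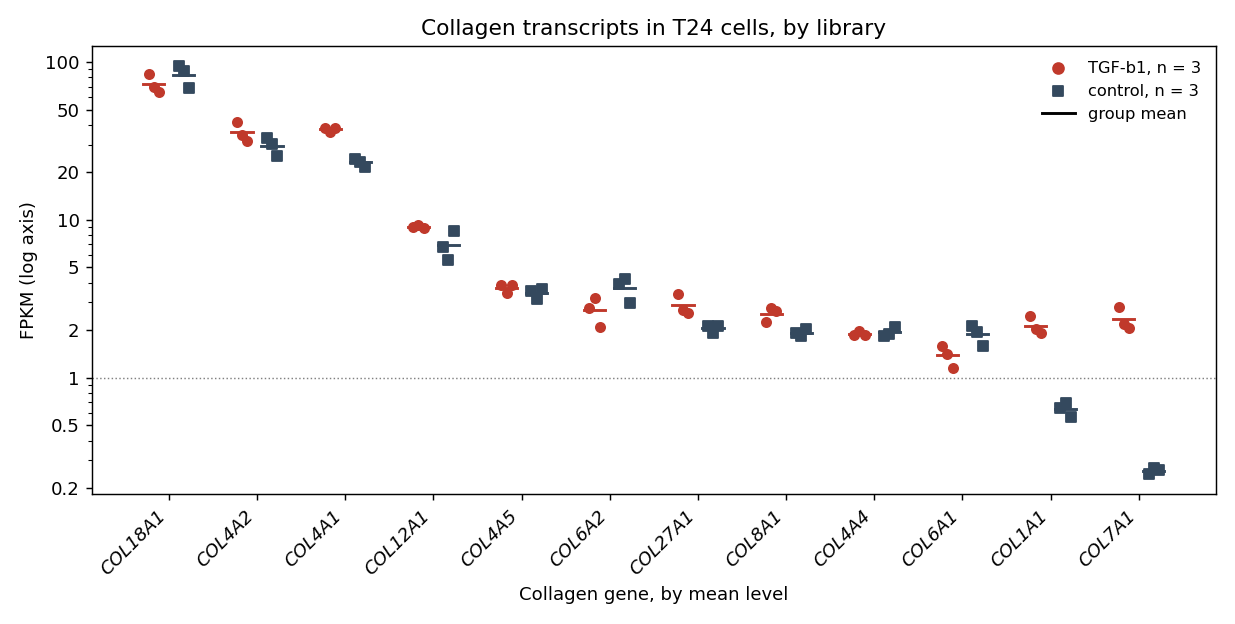
FPKM of the 12 collagen genes tested, on a log axis, with TGF-b1 libraries as circles, control libraries as squares and horizontal lines at the group means (n = 3 each); the dotted line marks 1 FPKM. COL7A1 and COL1A1 lie above the line in every TGF-b1 library and below it in every control library, while COL18A1 leads the family in both groups.

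COL7A1, COL1A1 and COL4A1 rose with TGF-b1 in limma's test on log2(FPKM + 1), adjusted by Benjamini-Hochberg over 11363 genes, and no collagen fell. Over all genes tested 1.14% were called higher and 1.29% lower. Of the 10 collagens that reached 1 FPKM in every library 1 was called, COL4A1, and the calls of COL7A1 and COL1A1 are given as single genes since the filter already required their difference. At an unadjusted p under 0.05 there were 6 higher and 2 lower collagens, against 25.1% of all genes, of which 11.2% were higher and 13.9% lower. In 6 of the 12 every TGF-b1 library was above every control library, and in 0 every one was below. Over all genes tested these shares were 14.6% and 12.5%, 27.1% in all. The 6 were the same genes as the 6 higher at an unadjusted p: COL4A1, COL12A1, COL27A1, COL8A1, COL7A1 and COL1A1. For COL7A1 and COL1A1 the filter already required the difference, so both counts are in part set by it. The median log2 change of the 12, with COL7A1 and COL1A1 included, was 0.28 and that of all genes tested was 0.01. Each fold on the log2(FPKM + 1) scale understates the change of low genes, so changes are also given from limma's voom on the recovered fragments, which tested 19 collagens and called 5 higher and 0 lower. Over its 14608 genes 7.64% were called, 2.81% higher and 4.83% lower. With no filter on low genes limma called 1 collagen higher, against 0.053% of all genes (0.0389% higher, 0.0141% lower), and at a minimum of 5 FPKM 1 of 4, against 7.46% (2.67% higher, 4.79% lower).

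COL7A1 encodes the chain of type VII collagen, whose homotrimers form the anchoring fibrils that tie epithelial basement membranes to the matrix below. It stood at 2.80, 2.19 and 2.05 FPKM in the TGF-b1 libraries and at 0.246, 0.267 and 0.262 FPKM in the control libraries. The groups were far apart, and the control libraries differed little from each other. In fragments these were 664, 581 and 540 in TGF-b1 libraries and 61, 67 and 67 in control libraries. The means were 2.35 ± 0.399 and 0.258 ± 0.0110 FPKM (SD, n = 3), a ratio of 9.08. The log2 change was 1.405 (SE 0.11, adjusted p = 0.00014 by limma) on the compressed scale and 3.15 (SE 0.21, adjusted p = 1.5e-10) by voom. COL7A1 was called under the 17 alternative settings that tested it, and the setting with a minimum of 5 FPKM did not test it. In GENCODE 29 the gene lies at chr3:48564073-48595267 on the minus strand. The sequence printed above precedes the RefSeq start at 48595329, which lies upstream of the GENCODE 29 start, and the distances given there count from the RefSeq start.

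COL1A1 encodes the alpha 1 chain of type I collagen, the main fibrillar collagen of connective tissue. It was at 2.45, 2.04 and 1.93 FPKM in TGF-b1 libraries and at 0.646, 0.689 and 0.564 FPKM in control libraries. Every TGF-b1 library was above every control library. The ratio of means was 3.38, with a log2 change of 0.94 (SE 0.11, adjusted p = 0.0011 by limma) and of 1.75 (SE 0.17, adjusted p = 1.3e-07) by voom. The call was lost with no filter on low genes (adjusted p = 0.056), and a minimum of 5 FPKM left the gene untested. COL1A2, the alpha 2 chain that normally completes the type I trimer, had 0 fragments in all 6 libraries, which allows at most 3 fragments, or 0.0112 to 0.0126 FPKM, in any of them; this limit covers counting error only. COL1A1 lies at chr17:50183289-50201632 on the minus strand.

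COL4A1 encodes the alpha 1 chain of type IV collagen, the sheet-forming collagen of basement membranes. It stood at 38.3, 36.2 and 38.1 FPKM in TGF-b1 libraries and at 24.3, 23.4 and 21.7 FPKM in control libraries. Its groups were narrow and did not overlap. The means were 37.5 ± 1.14 and 23.1 ± 1.33 FPKM, a ratio of 1.62, with a log2 change of 0.68 (SE 0.090, adjusted p = 0.0030 by limma) and of 0.70 by voom (adjusted p = 2.8e-05). The call was lost with no filter on low genes (adjusted p = 0.067). COL4A2, its partner in the common type IV trimer, stood at 41.6, 34.7 and 31.6 FPKM in TGF-b1 libraries and at 33.1, 30.2 and 25.3 FPKM in control libraries. These groups overlapped, and the change of 0.28 did not pass (95% interval -0.01 to 0.56, adjusted p = 0.21 by limma and 0.12 by voom). The change was 0.17 without TGF-b1 replicate 1 or without control 3, 0.30 without control 2 or without TGF-b1 replicate 2, and 0.36 without control 1 or without TGF-b1 replicate 3.

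The balance of these partner chains was compared within libraries. The ratio of COL4A1 to COL4A2 FPKM was 0.920, 1.04 and 1.205 in TGF-b1 libraries and 0.736, 0.774 and 0.857 in control libraries. Every TGF-b1 library was above every control library, with mean ratios of 1.06 ± 0.143 and 0.789 ± 0.0619 (SD, n = 3). The log2 ratio differed by 0.41, and the exact two-sided permutation test gave p = 0.1, the smallest that 3 against 3 allows (0.2 adjusted over 2 pairs). The transcripts differ in GC content, 55.4% for COL4A1 and 62.0% for COL4A2. With a trend in GC content and length removed from each library the difference was 0.38 (exact p = 0.1). COL4A1 at chr13:110148963-110307233 and COL4A2 at chr13:110305812-110513209 lie head to head, their RefSeq starts are 127 bases apart, and their annotated spans overlap at these ends. The sources used here do not give the strand setting, and without strand the fragments of this overlap cannot be told apart.

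The other type IV chains, found in specialised basement membranes such as those of kidney and eye, were called by neither limma nor voom, and COL4A3 and COL4A6 were under the filter and not tested by limma. COL4A5 was at 3.85, 3.44 and 3.86 FPKM in TGF-b1 libraries and at 3.53, 3.17 and 3.63 FPKM in control libraries (log2 change 0.09, 95% interval -0.12 to 0.29, adjusted p = 0.57 by limma; 0.04 to 0.13 when 1 library was left out). COL4A4 was at 1.87, 1.97 and 1.87 FPKM in TGF-b1 libraries and at 1.85, 1.89 and 2.09 FPKM in control libraries (log2 change -0.02, interval -0.22 to 0.19, adjusted p = 0.92). In both genes the groups overlapped. COL4A3, which lies head to head with COL4A4 on chromosome 2 with RefSeq starts 419 bases apart, was at 0.681, 0.484 and 0.628 FPKM in TGF-b1 libraries. In control libraries it was at 0.793, 0.707 and 0.792 FPKM, each above every TGF-b1 library, and voom gave a log2 change of -0.38 (adjusted p = 0.22). COL4A6, head to head with COL4A5 on chromosome X, had 63 fragments over the TGF-b1 and 89 over the control libraries. By FPKM it was at 0.101, 0.0764 and 0.118 in TGF-b1 libraries and at 0.125, 0.176 and 0.121 in control libraries, again each above every TGF-b1 library. In fragments the groups met, at 20, 17 and 26 in TGF-b1 libraries and 26, 37 and 26 in control libraries. Voom gave a log2 change of -0.51 (adjusted p = 0.41). COL4A5 stood 32.7 to 45.01 times above COL4A6 in TGF-b1 libraries and 18.0 to 29.9 times in control libraries, by FPKM. COL4A4 stood 2.75 to 4.07 times above COL4A3 in TGF-b1 libraries and 2.33 to 2.67 times in control libraries. These ratios were not tested, as COL4A3 and COL4A6 were under the filter.

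**Figure D2:**
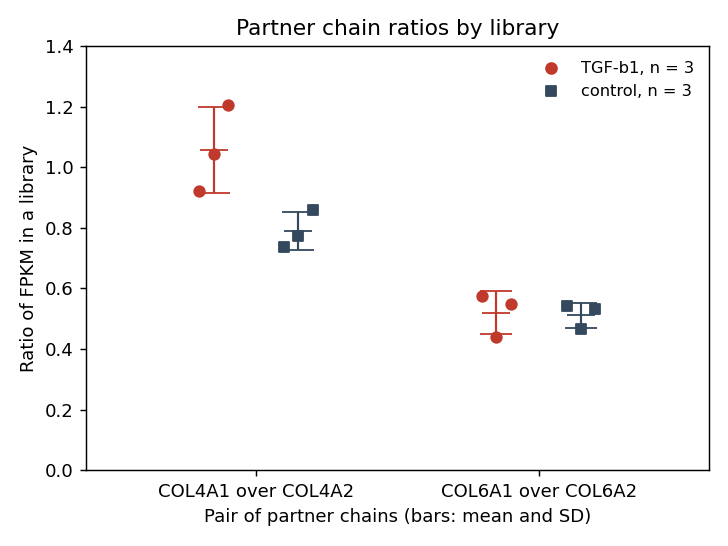
Ratio of FPKM between partner chains within each library, for COL4A1 over COL4A2 and COL6A1 over COL6A2; points are libraries and bars the mean and SD (n = 3, TGF-b1 circles left of control squares). The COL4A1 ratio is 0.920 or more in every TGF-b1 library and at most 0.857 in every control library, and the COL6A1 ratio overlaps between the groups.

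COL8A1, a short-chain network collagen of vessel walls and the cornea, was at 2.24, 2.75 and 2.67 FPKM in TGF-b1 libraries and at 1.91, 1.85 and 2.04 FPKM in control libraries. Its groups did not overlap, but the log2 change of 0.28 did not pass (95% interval 0.06 to 0.49, adjusted p = 0.13 by limma and 0.064 by voom). COL8A2, its partner chain, averaged 0.232 ± 0.0715 FPKM in TGF-b1 and 0.235 ± 0.0468 FPKM in control libraries, with 74 and 75 fragments in all. COL8A1 stood 7.24 to 16.2 times above COL8A2 in TGF-b1 libraries and 7.23 to 10.5 times in control libraries, which overlapped. This ratio was not tested either. COL10A1, the network chain of growth plate cartilage, had 1 fragment in TGF-b1 and 3 in control libraries.

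COL27A1 and COL12A1 were higher in every TGF-b1 library without passing limma's test. COL27A1, a fibrillar chain known from cartilage, was at 3.41, 2.69 and 2.58 FPKM in TGF-b1 libraries and at 2.12, 1.92 and 2.12 FPKM in control libraries (log2 change 0.34, SE 0.11, adjusted p = 0.10). It was called by voom (0.48, adjusted p = 0.023), after removal of the trend in GC content and length (adjusted p = 0.024; 4.48% of genes called, 2.56% higher and 1.92% lower) and over protein-coding genes alone (adjusted p = 0.049; 8.42% called, 2.95% higher and 5.47% lower). The other 14 of the 17 alternatives that tested COL27A1 did not call it. Leaving out 1 library gave log2 changes of 0.25 to 0.40 (adjusted p = 0.051 to 0.31 by limma). COL12A1, a FACIT that sits on the surface of type I fibrils, was at 8.97, 9.34 and 8.92 FPKM in TGF-b1 libraries and at 6.70, 5.62 and 8.53 FPKM in control libraries. Control 3 lay close to the TGF-b1 libraries. The log2 change was 0.36 (SE 0.12, adjusted p = 0.13 by limma) with all libraries, 0.50 (adjusted p = 0.011) without control 3 and 0.23 (adjusted p = 0.40) without control 2. By voom it was 0.40 (adjusted p = 0.044). It was 0.24 (adjusted p = 0.15) once the trend in GC content and length was taken out.

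The beaded filament chains and COL18A1 had lower means with TGF-b1 and did not pass the test. COL6A1 was at 1.59, 1.41 and 1.15 FPKM in TGF-b1 libraries and at 2.12, 1.96 and 1.59 FPKM in control libraries (log2 change -0.28, 95% interval -0.53 to -0.03, adjusted p = 0.17 by limma). COL6A2 was at 2.78, 3.21 and 2.10 FPKM in TGF-b1 libraries and at 3.91, 4.22 and 2.99 FPKM in control libraries (log2 change -0.35, interval -0.65 to -0.05, adjusted p = 0.16). In both genes only control 3 overlapped the TGF-b1 libraries. Without control 3 both passed, at -0.35 (adjusted p = 0.0496) and -0.47 (adjusted p = 0.039), in a setting that called 12.4% of all genes higher and 16.5% lower. With the GC and length trend taken out the changes were -0.05 for COL6A1 (adjusted p = 0.73) and -0.11 for COL6A2 (adjusted p = 0.58). Without TGF-b1 replicate 3 the COL6A2 change was -0.23 (adjusted p = 0.40). These chains are neighbours on chromosome 21 in the same orientation, and the ratio of COL6A1 to COL6A2 averaged 0.520 ± 0.0708 in TGF-b1 and 0.512 ± 0.0412 in control libraries (log2 difference 0.016, exact two-sided permutation p = 0.8). COL6A3, the chain that normally completes the type VI trimer, had 1 and 3 fragments over the 3 libraries of each group.

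COL18A1, a multiplexin of basement membranes whose C-terminal fragment is endostatin, had the highest level of the family. It was at 83.7, 69.3 and 64.3 FPKM in TGF-b1 libraries and at 94.0, 87.4 and 68.9 FPKM in control libraries, and these overlapped. The log2 change was -0.20 (95% interval -0.50 to 0.11, adjusted p = 0.37 by limma), -0.33 without control 3 (adjusted p = 0.074), -0.11 without control 1 (adjusted p = 0.77) and -0.0047 once the trend in GC content and length was taken out (adjusted p = 0.98). At 67.2% its transcript had the highest GC content of the 12, COL12A1 had the lowest at 46.3%, and the median of all genes tested was 48.1%. In control 3, 6 of the 12 collagens were below both other controls and 4 were above both. SLC19A1, a folate carrier gene that overlaps COL18A1 on the opposite strand, averaged 8.58 FPKM in TGF-b1 and 9.17 FPKM in control libraries.

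**Figure D3:**
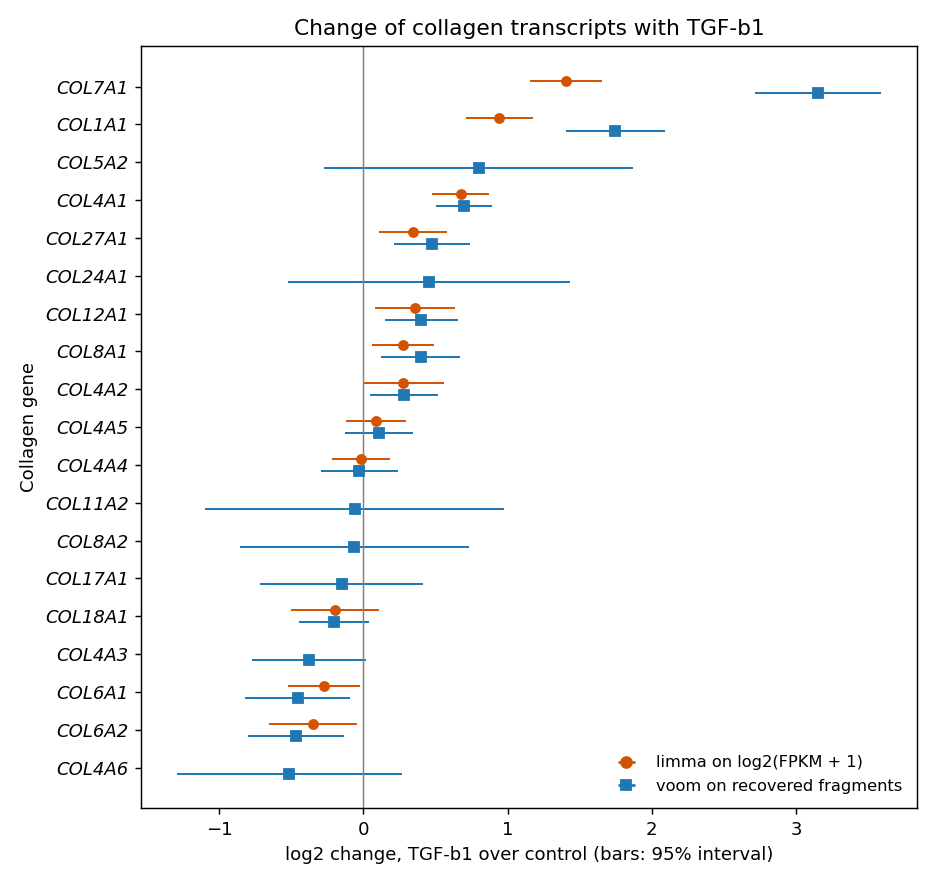
Log2 change of TGF-b1 over control with 95% intervals, by limma on log2(FPKM + 1) for 12 collagen genes (circles) and by voom on recovered fragments for 19 (squares), sorted by the voom value. COL7A1, COL1A1 and COL4A1, called by both, have intervals that exclude 0 by both. So do COL12A1, COL27A1 and COL8A1 above 0 and COL6A1 and COL6A2 below 0, which limma did not call. The voom values of COL7A1 and COL1A1 are larger, 3.15 and 1.75 against 1.405 and 0.94.

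The remaining 32 genes were under the filter. Of them 11 had at least 30 fragments over the 6 libraries, 16 had 1 to 29, and 5 had none: COL1A2, COL5A1, COL20A1, COL22A1 and COL23A1. Voom tested 7 of the 32 and called 0 of them. COL17A1, a transmembrane collagen of hemidesmosomes, was at 0.264, 0.448 and 0.316 FPKM in TGF-b1 libraries and at 0.367, 0.425 and 0.337 FPKM in control libraries (voom log2 change -0.15, adjusted p = 0.77). COL5A2, a chain of the fibrillar type V, had 72 fragments in TGF-b1 and 50 in control libraries, while its partner COL5A1 had none in either. COL11A2, of fibrillar type XI, had 80 and 86 fragments, and COL24A1, another fibrillar chain, had 63 and 51. In these 4 genes the groups overlapped.

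The other genes with at least 30 fragments were COL9A2 and COL16A1 of the FACITs, the transmembrane COL13A1 and COL28A1, with 11 to 26 fragments in either group. Of the genes under 30, COL15A1, the other multiplexin of basement membranes, is named because of its values. It had 8, 5 and 8 fragments in TGF-b1 libraries and 1, 0 and 0 in control libraries. The ratio of the summed counts, 21 to 1, was 20.7 with a 95% interval of 3.33 to 856 for counting error alone. This interval makes no allowance for the choice of the gene by its values or for spread among libraries. With so few fragments no test was run. The rest, all with at most 11 fragments in a group, were COL2A1, COL3A1, COL5A3, COL6A3, COL6A5, COL6A6, COL9A1, COL9A3, COL10A1, COL11A1, COL14A1, COL19A1, COL21A1, COL25A1 and COL26A1.

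**Figure D4:**
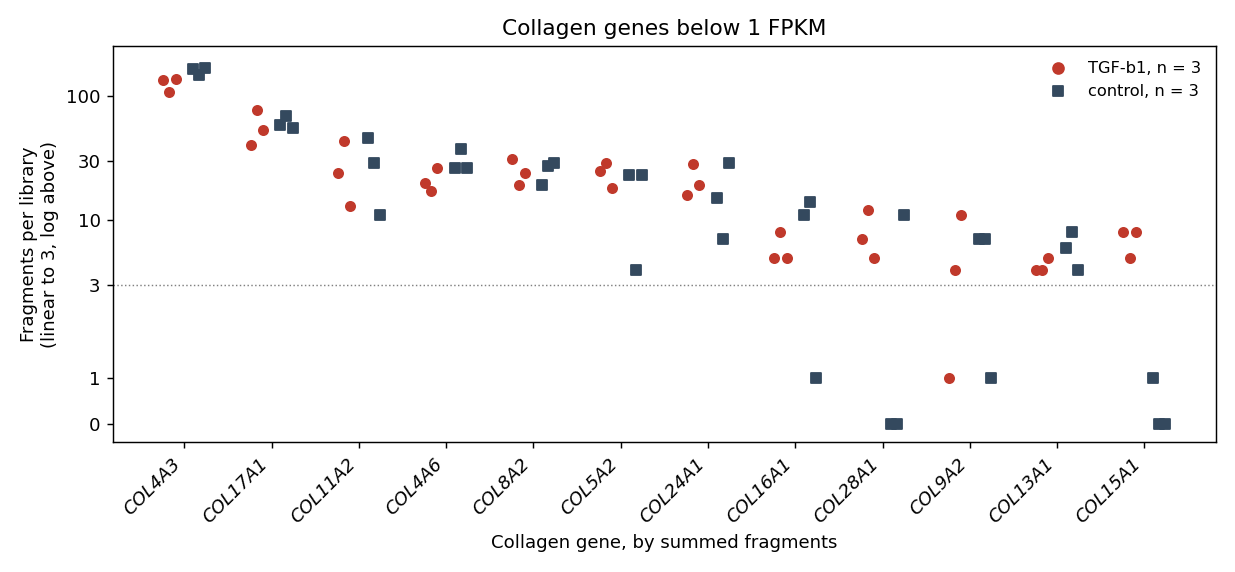
Fragments per library of the 11 collagen genes under the filter with at least 30 fragments in all, and of COL15A1, on an axis that is linear to 3 and logarithmic above; TGF-b1 circles stand left of control squares, and the dotted line marks the 3 fragments that a count of 0 allows. In COL15A1 the TGF-b1 libraries hold 5 to 8 fragments and the control libraries 0 or 1, and in the other genes, COL4A3 apart, the groups overlap or meet.

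By structural class, FPKM summed over the members was 5.47 ± 0.755 in TGF-b1 and 3.07 ± 0.211 in control libraries for the fibrillar chains (SD, n = 3), mostly COL27A1 and COL1A1. For the network chains it was 82.6 ± 5.54 and 61.1 ± 4.91, mostly COL4A1 and COL4A2. For the FACITs it was 9.21 ± 0.236 and 7.10 ± 1.44, nearly all COL12A1. The beaded filament chains summed to 4.08 ± 0.729 and 5.604 ± 0.887, nearly all COL6A1 and COL6A2. The multiplexins summed to 72.5 ± 10.1 and 83.4 ± 13.0, nearly all COL18A1. These sums therefore repeat the values of single genes given above. In bulk RNA fewer cells that make a transcript and less of it per cell cannot be told apart.

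Genes that make, bind and cut collagen were read from the same fit, in which 2.44% of all genes passed. Of 24 tested enzymes and carriers of collagen biosynthesis 0 passed in limma, with a median log2 change of -0.07. At an unadjusted p under 0.05 there were 7, near the share of 25.1% over all genes, and with control 3 left out 3 were higher and 4 lower, near the shares of 12.4% and 16.5%. By voom 1 was higher and 1 lower of 29, against 2.81% and 4.83% of all genes. The largest change was that of LOX, the crosslinking lysyl oxidase, at 1.76 FPKM in TGF-b1 and 2.58 FPKM in control libraries (log2 change -0.37, adjusted p = 0.075 by limma and 0.029 by voom). Of 7 tested collagen receptors 2 rose and 0 fell, with a median of 0.34, and by voom 4 were higher and 1 lower of 9, against 2.81% and 4.83% of all genes. The 2 were ITGA11, the integrin subunit that binds fibrillar collagen, and ADGRG1, an adhesion receptor that binds type III collagen. ITGA11 averaged 2.17 FPKM in TGF-b1 and 0.690 FPKM in control libraries (log2 change 0.90, adjusted p = 0.0028 by limma). It reached 1 FPKM in TGF-b1 libraries alone, so the filter already required a difference. ADGRG1 averaged 5.04 and 2.57 FPKM (log2 change 0.76, adjusted p = 0.0053). With no filter on low genes neither passed (adjusted p = 0.096 and 0.13). Of 4 tested collagen-degrading proteases 1 fell and 0 rose, and by voom 1 was higher and 1 lower of 6. The higher one was the gelatinase MMP9, under limma's filter, at 1.12, 0.946 and 0.829 FPKM in TGF-b1 libraries and 0.153, 0.416 and 0.0741 FPKM in control libraries (voom log2 change 2.43, adjusted p = 0.0021), named after its values were seen. The one that fell was the interstitial collagenase MMP1, at 2.28 FPKM in TGF-b1 and 3.74 FPKM in control libraries (log2 change -0.53, adjusted p = 0.024), and leaving out any 1 library other than control 3 ended this call (adjusted p up to 0.12). ACTB averaged 2462 FPKM in TGF-b1 and 2373 FPKM in control libraries (adjusted p = 0.81) and GAPDH 2073 and 2463 FPKM (adjusted p = 0.24).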

How the data were processed

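RNA of T24 cells was sequenced as 150 bp read pairs, per the labels' protocols, in 3 TGF-b1 and 3 control libraries. The authors deposited FPKM per gene; HISAT2 2.0.5, featureCounts 1.5.0-p3 and hg38 are named in the submitters' processing notes. Neither the annotation release nor the strand setting is stated in these sources. Mapping summary rows (11) were left out. FPKM times GENCODE 29 exon length and a library constant gave whole fragments for 99.999% of 126561 values above 0 (within 0.05), and these entered voom.

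The test was limma 3.58.1 (R 4.3.3, trend and robust) on log2(FPKM + 1) with treatment as the sole term, for genes that reached 1 FPKM in 3 or more libraries. P-values were Benjamini-Hochberg adjusted over 11363 genes, with a threshold of 0.05. Voom took genes with at least 10 fragments in at least 3 libraries. Chain ratios were compared by exact permutation in SciPy 1.17.1. The code was tested on simulated data. Alternatives varied the pseudocount, filter, scaling, test, replicate block and libraries; the GC and length trend, total fragment scaling and protein-coding settings were chosen after seeing the data. Intervals and floors cover counting error only.

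The collagen genes and the lists of related genes and markers were chosen with earlier results of these data known. Every tested collagen was named, and those under the filter with at least 30 fragments or a group mean of at least 0.1 FPKM. Of other lists, up to 3 genes past the threshold, or the 1 with the largest change, were named. Some genes of these lists are not reported here.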

Additional observations from a re-analysis of the deposited data

How the results depend on the processing

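COL7A1 passed under the 17 of 18 alternatives that tested it, with log2 changes of 1.31 to 3.15; a minimum of 5 FPKM left COL7A1 and COL1A1 untested. Of the alternatives that tested them, COL1A1 and COL4A1 lost their calls with no filter on low genes and under no other. The count of collagens higher was 3; it was 1 with no filter, 1 at a minimum of 5 FPKM, where 4 were tested, 5 by voom, and 3 to 4 when 1 library was left out. The count lower was 0, and 0 to 2 when 1 library was left out, 2 without control 3. Over all genes 130 were higher and 147 lower. These became 11 and 4 with no filter, 84 and 60 at a minimum of 0.1 FPKM, 410 and 706 by voom, and 295 and 547 over protein-coding genes. Higher calls were 291 with the GC and length trend removed. Lower calls were 321 at a minimum of 5 FPKM, 225 with upper quartile scaling and 221 scaled to total fragments. Leaving out 1 library gave 80 to 1408 higher and 44 to 1872 lower, both highest without control 3. The cause was not tested. The change of COL4A4 turned positive with upper quartile scaling (0.0037), without control 3 (0.019) and scaled to total fragments (0.0044), with a range of -0.040 to 0.019 when 1 library was left out. The COL6A1 to COL6A2 log2 ratio difference ran from -0.059 to 0.13 when 1 library was left out, and that of COL4A1 to COL4A2 from 0.32 to 0.51. With the replicate block 249 genes were higher and 518 lower. Same-numbered libraries deviated together with r = 0.25, -0.07 and 0.17 across genes. TGF-b1 replicates 1 and 3 correlated best with the control of their own number, and replicate 2 did not. The labels do not say whether same-numbered libraries shared a culture or batch, and this was not tested. Depth limits the genes under 30 fragments.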
